A study of Oryza sativa with 12 samples.

Results

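The genes described here are those whose transcripts were at least 4-fold lower after chilling at the end of the day and differed little after chilling at the end of the night, in the shoots of indica rice seedlings. They numbered 39 of the 40424 identifiers in the count table. RNA sequencing was done on the above-ground parts of seedlings of the cultivar 93-11 (Oryza sativa ssp. indica) at the three-leaf stage. Plants about 10 days old grew at 28 °C in cycles of 12 h light and 12 h dark, and Zeitgeber time (ZT) counts hours from lights-on, so that ZT12 is dusk and ZT24 is dawn. CT12 seedlings spent ZT8 to ZT12 at 13 °C and were harvested at ZT12, and NT12 seedlings stayed at 28 °C until the same harvest. CT24 seedlings spent ZT20 to ZT24 at 13 °C, and NT24 seedlings stayed at 28 °C until harvest at ZT24. By this light cycle, the chilling before ZT12 fell in the light and the chilling before ZT24 in the dark. Time of day and light during chilling therefore cannot be told apart. Each of the 4 groups had 3 libraries, each made from 5 pooled plants, so differences between single plants are averaged within a library. All groups were the same cultivar, and no mutant or transgene was involved.

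The 39 genes were chosen by their measured counts. Counts were divided by median-of-ratios size factors, and the level of a group was log2 of the mean of its 3 libraries plus 1. A gene was taken if its highest group level was at least 8 (255 normalised counts), if CT12 minus NT12 was -2 or lower and if CT24 minus NT24 lay within 0.5 of 0 in either direction. Of the 40424 identifiers, 16290 reached that level. Of these, 320 had a CT12 minus NT12 difference of -2 or lower. Among the 320, 97 were also lower by at least 2 after chilling at ZT24, 145 were lower by 0.5 to 2, 39 were higher by at least 0.5, and the remaining 39 are the genes described here. The differences that the choice used are given as descriptions and not as findings.

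Circadian clocks of plants divide the day by letting transcription factors that peak at different hours repress or activate each other, and a large share of plant transcripts follows them. Responses to cold depend on the hour at which the cold arrives, a property called gating, and in leaves chilling is also known to slow or stall the clock's own rhythm. A gene whose transcript normally peaks towards dusk can therefore be lowered by cold at dusk and have little transcript left to lower at dawn, and its levels at 28 °C at both times are needed to read its response. The files give no names for these identifiers and 0 of the 40424 were found in the reference list of rice genes, so neither functions nor markers of shoot tissue can be given. In whole shoots, fewer cells of a type and less RNA per cell cannot be told apart.

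Total counts per library ranged from 42966604 to 52762123. The size factors ranged from 0.680 to 0.803 in CT12, from 1.37 to 1.42 in NT12 and from 0.968 to 1.13 over the libraries at ZT24. A pair of libraries stood apart from the others of their group for genes of this kind. In 12 of the 39 genes the highest and lowest NT12 libraries differed at least 4-fold, and NT12 replicate 1 was the lowest of the 3 in 11 of those 12. When NT12 replicate 1 was left out, the rule took 53 genes, which included 38 of the 39. When CT12 replicate 2 was left out, it took 94, which included 33 of the 39. Across the other left-out single libraries, it took 30 to 43 genes. What set these libraries apart was not tested.

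After chilling at ZT12 the 39 genes were lower by a median of 2.33 on the log2 scale, a 5.02-fold difference. The differences, CT12 minus NT12, ran from -8.26 to -2.0, and the 16290 genes at the same minimum level had a median of 0.14. After chilling at ZT24 the median difference, CT24 minus NT24, was -0.13, with 28 genes below 0, 10 above and 1 at 0. In 33 of the 39 genes all 3 CT12 libraries lay below all 3 NT12 libraries, and in the other 6 the groups overlapped. Among the 16290 genes 23.5% had CT12 wholly below NT12. At ZT24 the chilled libraries lay wholly below the unchilled ones in 4 of the 39 and wholly above in 2, against 28.4% and 36.6% of the 16290. Since the rule used both contrasts, nothing is read from these shares.

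**Figure D1:**
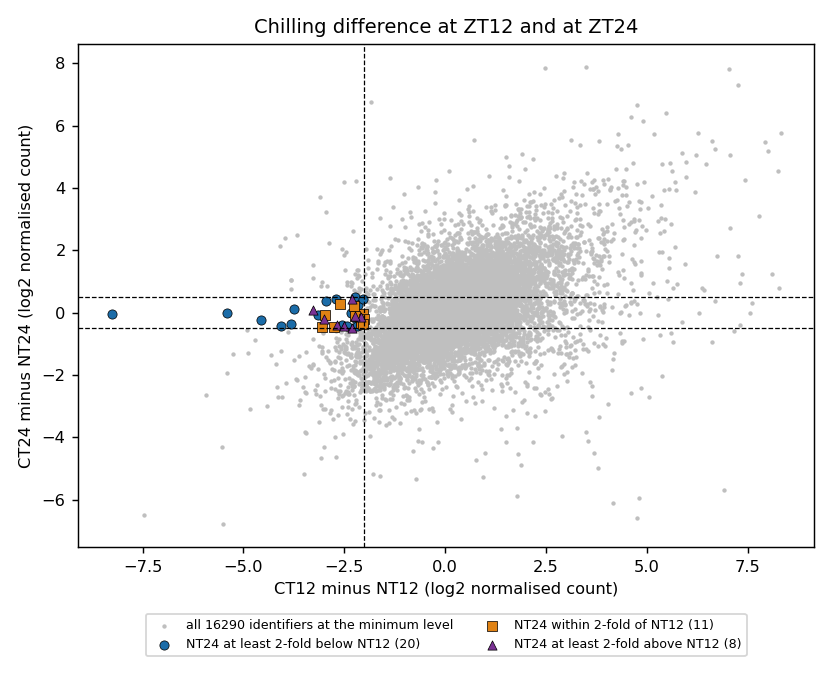
Each point is an identifier that reached the minimum level; the horizontal axis is CT12 minus NT12 and the vertical axis CT24 minus NT24, both in log2 normalised counts, with dashed lines at the limits of the rule (-2, and 0.5 on either side of 0). The 39 genes (coloured, by their NT24 level relative to NT12) occupy the narrow band at the left, most of them close to the -2 line, and the genes above and below that band had a dusk fall of the same size with a change at dawn.

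The whole-table test was edgeR's quasi-likelihood test on all 12 libraries with Benjamini-Hochberg adjustment over 24700 genes, and a gene is called here when its adjusted p was below 0.05. All 39 genes passed the filter on low counts. In CT12 against NT12, 34 of the 39 were called lower and none higher, where 20% of all genes tested were called lower and 24.9% higher. In CT24 against NT24, 2 were called lower and none higher, against 20.2% and 21.9% of all genes tested. The 2 are OsR498G0305943400.01 and OsR498G0305313900.01, named here after their values were seen. The difference between the responses, CT24 minus NT24 less CT12 minus NT12, was called positive for 22 of the 39 (56.4%), against 9.24% of all genes. For the other 17 genes the test of the difference did not pass, so unequal responses at dusk and dawn were not shown. A pass shows responses of unequal size and not that the dawn response is absent. Both genes called lower at ZT24 were among the 22. The rule used these contrasts, so the counts describe the genes and support nothing further.

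The 39 genes fell into 3 classes by a measure outside the chilling contrasts, the level at dawn relative to dusk at 28 °C. In 20 genes the NT24 level was at least 2-fold below NT12, in 11 it was within 2-fold, and in 8 it was at least 2-fold above. The shares were 51.3%, 28.2% and 20.5%. Among the 16290 genes at the minimum level they were 14.3%, 70.6% and 15.1%, and among the 320 genes that were at least 4-fold lower after chilling at ZT12 they were 24.1%, 57.8% and 18.1%. In the NT24 against NT12 test 14 of the 39 were called lower and 8 higher, where 20.9% and 23.2% of all genes tested were called. This comparison shares the NT12 and NT24 libraries with the rule, which favours genes high in NT12, so it is not independent of the choice. Most of the 12 genes whose NT12 libraries differed at least 4-fold were in the class with low dawn levels. Of those 12, 3 were called lower in NT24 than in NT12 and 9 were not called. In CT24 against CT12, which shares the chilled libraries with the rule, 19 were called higher and 3 lower, against 20.3% and 21.8% of all genes tested.

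**Figure D2:**
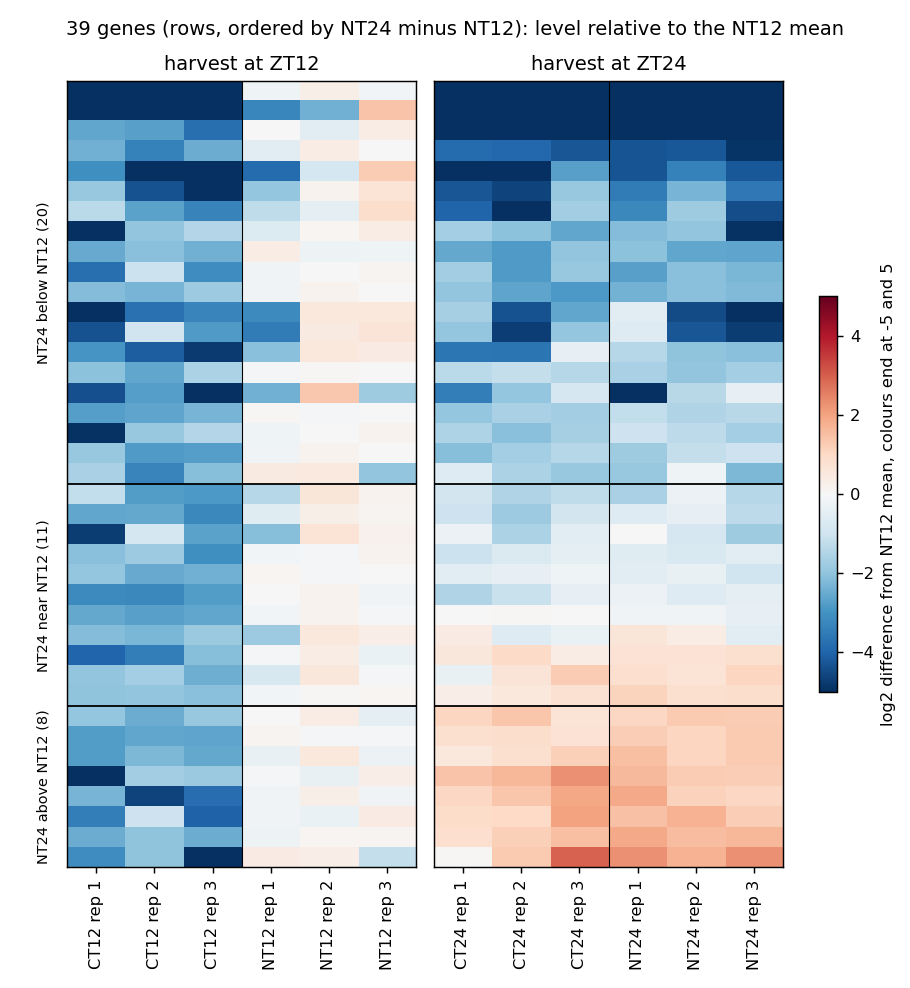
Rows are the 39 genes in order of NT24 minus NT12 and columns the 12 libraries, with the chilled group left of the unchilled one at each harvest; colour is log2(normalised count + 1) minus the gene's own NT12 level. The CT12 columns are blue in nearly every row, while the ZT24 columns pass from dark blue in the 20 genes with low dawn levels, through pale colours in the 11 genes near their NT12 level, to red in the 8 genes with high dawn levels, alike in CT24 and NT24.

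NT12 is the highest group in each of the 20 genes of the largest class, an order that the rule and the class limit fix together. The median level of the class was 6.45 in CT12 and 9.81 in NT12, and at ZT24 it was 6.70 in CT24 and 7.04 in NT24 (log2 of normalised counts plus 1). The chilled dusk level was set against the level that unchilled seedlings had at dawn. The median difference, CT12 minus NT24, was -0.21, with 11 of the 20 genes within 1 of 0, 6 at -1 or lower and 3 at 1 or higher. The rule and the class limit chose CT12 and NT24 to be low against the same NT12 libraries, so these values are descriptions. A gene whose NT12 mean was raised by single libraries could enter the class in this way, which was not tested. The CT12 and NT24 libraries overlapped in 14 of the 20. CT12 lay wholly below NT24 in 3 and wholly above in 3, where 32.7% and 36.5% of the 16290 genes did so. Between the times of day at 28 °C, 13 of the 20 were called lower in NT24, where 20.9% of all genes tested were, and the class limit fixed that direction. The difference between the chilling responses was called positive for 8 of the 20, against 9.24% of all genes tested. For the other 12, unequal responses at dusk and dawn were not shown.

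OsR498G0510625800.01 had reads at dusk and none at dawn, so the size of its gap between them is known only as a bound. It had 23.5, 11.2 and 26.6 normalised counts in the CT12 libraries, against 797, 1125 and 825 in the NT12 libraries. No read was counted for it in any CT24 or NT24 library. The means at ZT12 were 20.4 ± 8.15 in CT12 and 916 ± 182 in NT12 (SD, n = 3), a log2 difference of -5.42, with all CT12 libraries below all NT12 libraries. NT24 was at least 918-fold lower than NT12, taking 3 counts over the group's libraries as the floor (edgeR adjusted p = 2.33e-06), and CT24 was at least 21.2-fold lower than CT12 (edgeR adjusted p = 0.000214). With both ZT24 groups at 0 counts, a chilling response at dawn could not be seen, and the small ZT24 difference that placed this gene among the 39 carries no information on it.

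OsR498G0511271700.01 was also almost without reads at dawn, with 1 raw count over the 3 CT24 libraries and 1 over the 3 NT24 libraries. No CT12 library had a count for it, against 31.4, 57.1 and 831 normalised counts in the NT12 libraries. CT12 was at least 225-fold lower than NT12 on the same floor, and at least 32.6-fold lower without NT12 replicate 3. From 1 read in NT24, the ratio to NT12 was 921-fold lower (exact 95% interval 165 to 36393, counting error only; edgeR adjusted p = 0.00194), and 134-fold lower without NT12 replicate 3 (interval 23.5 to 5315). With 0 and 1 reads, CT12 and NT24 cannot be ranked against each other. A single NT12 library held most of its reads, so the size of the fall rests on that library although every NT12 library lay above every CT12 library.

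OsR498G0101832600.01 was measured in all groups and kept a difference between dusk and dawn under chilling. It had 215, 195 and 93.8 normalised counts in CT12, against 1326, 913 and 1670 in NT12. Its counts at ZT24 were 16.6, 35.1 and 31.9 in CT24, against 4.93, 22.1 and 36.2 in NT24. CT12 lay wholly below NT12, while the libraries at ZT24 overlapped. NT24 minus NT12 was -5.92 on the log2 scale (SE 0.60, edgeR adjusted p = 9.92e-06), and that of CT24 from CT12 was -2.58 (SE 0.54, edgeR adjusted p = 0.00241). Its CT12 level therefore lay between the dusk level and the dawn level of unchilled seedlings, 2.94 above NT24 on the log2 scale of the rule.

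OsR498G0102281000.01 had the highest counts in NT12 of the 39 genes, which is not a ranking of transcript abundance because counts also depend on transcript length. It had 594, 3910 and 946 normalised counts in CT12, against 7235, 8131 and 9014 in NT12. In the dawn libraries it had 2406, 1134 and 2198 in CT24, against 1238, 1918 and 1686 in NT24. The means of CT12, CT24 and NT24 were 1817 ± 1821, 1913 ± 683 and 1614 ± 346, against 8127 ± 889 in NT12 (SD, n = 3). NT12 alone was high, and the 3 libraries of each other group overlapped with those of the others. NT24 was lower than NT12, with a fitted difference of -2.32 (log2, SE 0.58, edgeR adjusted p = 0.00654), and CT24 minus CT12 was 0.09 (SE 0.55, edgeR adjusted p = 0.915).

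**Figure D3:**
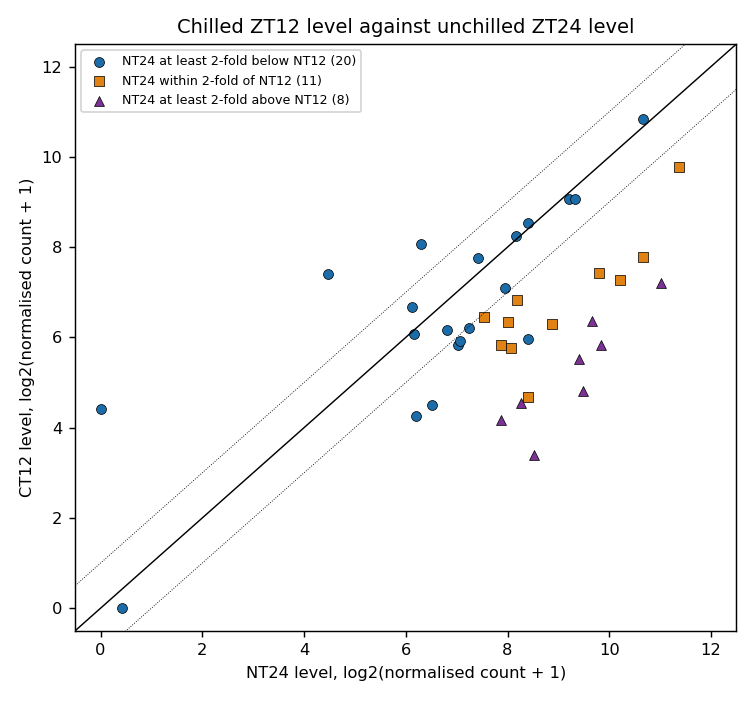
The horizontal axis is the NT24 level and the vertical axis the CT12 level of the 39 genes, both as log2(normalised count + 1), with the solid line marking equal levels and dotted lines a 2-fold difference. Of the 20 genes with low dawn levels (circles) 11 lie between the dotted lines, while the 11 genes near their NT12 level (squares) and the 8 with high dawn levels (triangles) lie below them, as the rule and the class limits require. The circles were chosen to be low on both axes against the same NT12 libraries, so their closeness to the line is a description.

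In the class of 11 genes, the levels at 28 °C at dusk and dawn were within 2-fold of each other. Transcripts were therefore present to be lowered at both times. The NT24 minus NT12 differences ran from -0.98 to 0.92, with 3 of the 11 within 0.5 of 0. In NT24 against NT12, 1 of the 11 was called lower and 1 higher, against 20.9% and 23.2% of all genes tested. The median level was 6.45 in CT12 and 8.86 in NT12, and 8.32 in CT24 and 8.40 in NT24. The rule and the class limit together make CT12 the lowest of the 4 groups here and place it at least 2-fold below NT24, so the following values are descriptions. The median of CT12 minus NT24 was -2.31, and CT12 lay wholly below NT24 in 9 of the 11, against 32.7% of the 16290 genes. In CT24 against CT12, 9 of the 11 were called higher, against 20.3% of all genes tested. The difference between the chilling responses was called positive for 8 of the 11, against 9.24% of all genes tested.

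OsR498G0511119300.01, named after its values were seen, had the smallest adjusted p for the difference between the responses among the 39. It had 177, 162 and 175 normalised counts in CT12, against 959, 1196 and 1008 in NT12. At dawn there were 1064, 1083 and 1076 in CT24, against 927, 933 and 799 in NT24. The means were 171 ± 8.07 in CT12 and 1054 ± 125 in NT12, and 1074 ± 9.77 in CT24 and 886 ± 75.9 in NT24 (SD, n = 3). Only the CT12 libraries were low, and all CT24 libraries lay above all NT24 libraries. CT24 minus CT12 was 2.66 (SE 0.12, edgeR adjusted p = 4.28e-08), while NT24 minus NT12 was -0.23 (SE 0.11, edgeR adjusted p = 0.125).

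OsR498G0305313900.01, of the same class, was also among the 2 genes called lower after chilling at ZT24. It had 155, 158 and 146 normalised counts in CT12, against 569, 648 and 667 in NT12. At ZT24 it had 781, 915 and 1060 in CT24, against 1343, 1084 and 1143 in NT24. The chilled libraries lay wholly below the unchilled ones at both times, by a log2 difference of -2.03 at ZT12 and -0.37 at ZT24. The ZT24 call was lost in 5 of its 10 alternative analyses.

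In the class of 8 genes, levels at 28 °C were by definition higher at dawn than at dusk. The rule and the class limit together make CT12 the lowest group and fix the sign of CT12 minus NT24 and of CT24 minus CT12, so these are given as descriptions. The median level was 5.16 in CT12 and 8.11 in NT12, and 9.17 in CT24 and 9.45 in NT24. CT12 lay wholly below NT12 and wholly below NT24 in all 8, against 23.5% and 32.7% of the 16290 genes. The median of CT12 minus NT24 was -3.86, a 14.5-fold difference. In CT24 against CT12 all 8 were called higher, against 20.3% of all genes tested, and in NT24 against NT12 7 of the 8 were, against 23.2%. The difference between the chilling responses was called positive for 6 of the 8, against 9.24% of all genes tested.

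OsR498G0204850100.01 had the largest dawn excess of the class. It had 8.83, 19.9 and 0 normalised counts in CT12, against 111, 105 and 35.8 in NT12. Its counts at ZT24 were 86.5, 210 and 652 in CT24, against 412, 280 and 410 in NT24. The CT24 libraries spanned the whole NT24 range and beyond. CT24 minus CT12 was 5.00 (SE 0.95, edgeR adjusted p = 0.00135) and NT24 minus NT12 was 2.15 (SE 0.78, edgeR adjusted p = 0.0423). The call for NT24 against NT12 was lost in 8 of its 10 alternative analyses, with adjusted p from 0.0106 to 0.154.

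OsR498G0815279900.01 and OsR498G0100053600.01 also had both dawn groups above both dusk groups. OsR498G0815279900.01 had 50.0, 68.5 and 50.4 normalised counts in CT12, against 237, 303 and 307 in NT12. In the dawn libraries it had 511, 644 and 793 in CT24, against 1050, 816 and 882 in NT24, and its ZT24 difference of -0.50 put it just inside the rule's limit. Its NT24 minus NT12 difference was 1.72 (SE 0.20, edgeR adjusted p = 2.62e-05). OsR498G0100053600.01 had 53.0, 9.96 and 18.2 in CT12, against 239, 331 and 235 in NT12. At dawn there were 556, 698 and 1042 in CT24, against 1003, 600 and 556 in NT24, and its CT24 minus CT12 difference was 4.84 (SE 0.53, edgeR adjusted p = 2.2e-05).

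OsR498G0305943400.01, the other gene called lower after chilling at ZT24, had closely agreeing libraries. It had 41.2, 47.3 and 46.2 normalised counts in CT12, against 322, 284 and 274 in NT12. At ZT24 it had 510, 536 and 491 in CT24, against 699, 619 and 720 in NT24. The log2 difference was -2.68 at ZT12 and -0.41 at ZT24, and the chilled libraries lay wholly below the unchilled ones both times. The ZT24 call was lost in 5 of its 10 alternative analyses.

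**Figure D4:**
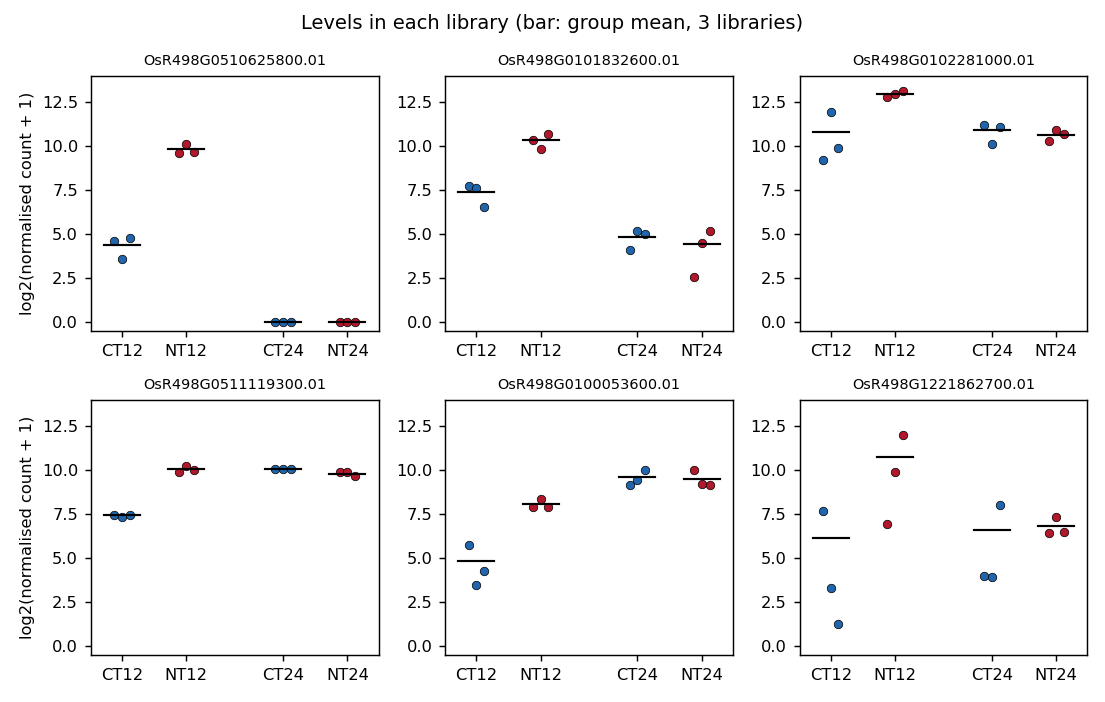
Points are single libraries and bars the group means of 6 of the genes, as log2(normalised count + 1), with chilled groups in blue left of the unchilled groups in red at each harvest. The upper row shows genes with low dawn levels, where CT12 lies above (first 2 panels) or beside (rightmost panel) the ZT24 groups; OsR498G0511119300.01 and OsR498G0100053600.01 have CT12 as the lowest group, as the rule and the class limits require; and OsR498G1221862700.01 has libraries far apart within NT12 and CT12.

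The 39 genes had a wider spread between libraries of a group than all genes at the same minimum level, a description with no test. The median coefficient of variation was 39.6% in CT12 and 29.2% in NT12, and 32.0% in CT24 and 23.4% in NT24. Over the 16290 genes it was 16.8% in CT12 and 10.9% in NT12, and 11.4% in CT24 and 11.2% in NT24. The 320 genes with a 4-fold lower level after chilling at ZT12 stood at 38.4% in CT12 and 20.6% in NT12, and 28.7% in CT24 and 18.9% in NT24. The minimum level applies to a gene's highest group, so counts within a group were not matched between these lists. None of the 12 genes whose NT12 libraries differed at least 4-fold was called for the difference between the responses, whereas 22 of the other 27 were, against 9.24% of all genes tested. Of the 12, 8 were called lower in CT12 than in NT12, and of the 27, 26 were, against 20% of all genes tested. The rule used both contrasts, so these counts are descriptions. The spread within NT12 also enters the error of these tests, so the split itself favours fewer calls among the 12.

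The widest NT12 range was that of OsR498G1221862700.01, with 202, 8.71 and 1.40 normalised counts in CT12, against 119, 935 and 4056 in NT12. Its counts at ZT24 were 14.7, 14.5 and 255 in CT24, against 83.9, 161 and 89.5 in NT24. CT12 replicate 1 lay above NT12 replicate 1, so the groups overlapped. OsR498G1221863500.01, second in NT12 counts, had 1277, 232 and 96.6 in CT12, against 1242, 5425 and 7563 in NT12. In the dawn libraries it had 244, 192 and 1259 in CT24, against 419, 950 and 402 in NT24. The same library of each group was the highest in both genes, with Pearson's r = 0.968 and Spearman's rho = 0.972 over the 12 libraries, which share depth and group and are given as a description. Their identifiers are close in number, with 2 others listed between them, and no source used here says how reads shared by similar genes were counted, so the pair may not be independent measurements. The CT12 against NT12 call was lost in 5 of 10 alternative analyses for each.

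To read the same differences in libraries that the choice did not use, the rule was applied to 2 libraries per group and the library with the remaining number was read. With replicate 1 held out, 45 genes were chosen, and their median CT12 minus NT12 difference in replicate 1 was -2.03. With replicate 3 held out, 39 genes were chosen and the median was -1.86. With replicate 2 held out, 96 genes were chosen and the median was -0.61. Differences of -2 or lower were found in 53.3%, 22.9% and 43.6% of the chosen genes when replicates 1, 2 and 3 were held out, against 3.68%, 2.85% and 3.24% of all genes at the minimum level. A difference below 0 was found in 41 of 45, 63 of 96 and 39 of 39. Over all genes at the minimum level the median differences were 0.13, 0.10 and 0.18.

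The small difference at dawn was read in the same way. In the held-out libraries CT24 minus NT24 lay within 0.5 of 0 in 37.8%, 40.6% and 28.2% of the genes chosen, against 47.9%, 46.5% and 43.3% of all genes at the minimum level. The medians were -0.59, -0.33 and -0.30, with 35 of 45, 62 of 96 and 21 of 39 below 0. Over all genes at the minimum level the medians were 0.09, 0.11 and 0.06. In the libraries that chose the genes, their medians had been -0.17, -0.09 and -0.05. Both difference limits of the rule were met again in the held-out libraries by 7, 11 and 5 genes. The level limit was not applied again there, and the share of all genes meeting both limits was not computed. The sets of 45, 96 and 39 chosen genes share 23, 20 and 16 genes with the 39 described here.

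**Figure D5:**
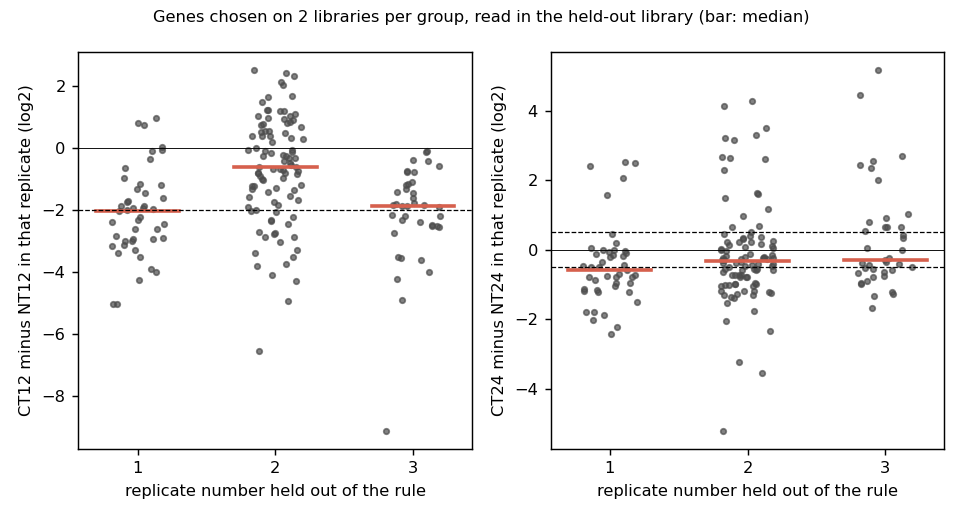
Each point is a gene chosen on 2 libraries per group and read in the libraries of the replicate number on the horizontal axis; the left panel gives CT12 minus NT12 and the right panel CT24 minus NT24 (log2), with red bars at the medians and dashed lines at the rule's limits. The medians on the left are -2.03, -0.61 and -1.86, with replicate 2 nearest to 0, and the points on the right scatter well past the limits of the rule.

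CT12 replicate 2 was read in the same way by itself. When only that library was left out, the 94 genes chosen had a median difference of -0.68 between it and the NT12 level, and 23 of them were at -2 or lower. The same reading gave -2.12 for CT12 replicate 1 over 42 genes and -2.37 for CT12 replicate 3 over 40 genes, with 24 genes at -2 or lower in each.

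Of the 39 genes, 8 met the rule whichever single library was left out. They comprised 3 with low dawn levels, 3 near their NT12 level and 2 with high dawn levels, and all 8 had NT12 libraries within 2-fold of each other. Their CT12 minus NT12 differences ran from -5.42 to -2.27 and their CT24 minus NT24 differences from -0.41 to 0.28. They include OsR498G0510625800.01, OsR498G0511119300.01, OsR498G0100053600.01 and OsR498G0305943400.01. The difference between the responses was called positive for 7 of the 8, against 9.24% of all genes tested, the exception being OsR498G0510625800.01, which had no reads at ZT24.

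Many of the 39 lay near a limit of the rule. For 16 genes the CT12 minus NT12 difference was within 0.25 of -2, and 23 further genes lay as close on the other side. For 19 genes the CT24 minus NT24 difference was within 0.25 of its limit, and 22 others lay as close outside. The values next to the dusk limit were -2.0 and -2.03 inside and -1.99 and -1.99 outside. Those next to the dawn limit were 0.498 and 0.496 inside and 0.503 and 0.514 outside, without regard to sign. Those next to the level limit were 8.01 and 8.06 inside and 7.98 and 7.96 outside.

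The members did not share 1 profile. Pearson's r between a gene's log2 levels over the 12 libraries and the median profile of the 39 ran from 0.15 to 0.97 with a median of 0.72. Among genes outside the 39, the most similar profiles were those of OsR498G0409067100.01 (r = 0.97) and OsR498G0307370200.01 (r = 0.96). Their CT12 minus NT12 differences were -0.78 and -0.65, so they shared the order of libraries with a smaller fall. By identifier, 3 of the 39 (7.69%) carried the other identifier prefix used in the table, against 2.78% of the 16290 genes, and all 3 were among the 8 genes that met the rule whichever library was left out. The other 36 began with OsR498G.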

How the data were processed

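Reads were aligned with HISAT2 2.0.4, per the submitters' processing notes. No source used here names the counting tool, build, annotation or strand setting. The authors deposited whole-number counts per identifier, 1 column per library, not normalised; 38714 identifiers begin with OsR498G and 1710 carry another prefix. Replicates are called biological repeats per the labels' protocols. No pair of libraries of a group agreed within sampling noise (chi-square per gene from 25.5 to 139), so each was counted as 1.

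The choice of genes used size factors over 22389 identifiers with a count in all 12 libraries, and normalised counts in the text use these factors. Tests used edgeR 4.0.16 in R 4.3.3: expression filter (minimum count 10, minimum total 15; 24700 genes), TMM scaling, 1 mean per group over 12 libraries, 8 residual degrees of freedom, quasi-likelihood tests with Benjamini-Hochberg adjustment. Standard errors (SE) were derived from the F statistic. The fit was tested on simulated data. Alternatives were RLE, upper-quartile and total-count scaling, no filter, DESeq2 1.42.0, limma-voom (limma 3.58.1), a replicate block and left-out libraries. For the rule they also included other limits and the mean of log2 values as the group level. Intervals and floors cover counting error only.

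The genes, classes and tests were chosen with earlier results of these data known. Named genes were the 2 with the largest fitted falls at ZT12 without overlap, the 2 most positive and most negative called genes of NT24 against NT12 and of CT24 against CT12, the 2 with the highest counts in NT12 and the 2 with the widest NT12 range; 3 more were named after their values were seen.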

Additional observations from a re-analysis of the deposited data

Results flagged for a closer look

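For 7 of the named genes the chilling response itself differed between ZT24 and ZT12 in the test of the difference (edgeR's quasi-likelihood test, adjusted p below 0.05 over all genes). Because the rule chose genes on these contrasts, the differences are values and not independent results. The log2 difference, ZT24 response minus ZT12 response, was 3.40 for OsR498G0100053600.01, 3.34 for OsR498G0101832600.01, 2.89 for OsR498G0511119300.01, 2.41 for OsR498G0102281000.01, 2.29 for OsR498G0305943400.01, 1.81 for OsR498G0815279900.01 and 1.66 for OsR498G0305313900.01. That of OsR498G0102281000.01 passed narrowly, with an edgeR adjusted p of 0.0494.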

How the results depend on the processing

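The number of genes the rule took depended on scaling and limits. It was 39 as reported, 64 under upper-quartile scaling (29 of the 39 kept) and 214 under total-count scaling (38 kept), which moved the median CT12 against NT12 change of all genes from -0.02 to -0.31 and -0.77. It was 110 and 13 with a minimum level of 6 and 10, 106 and 10 with dusk limits of -1.5 and -3, and 20 and 90 with dawn limits of 0.25 and 1. Leaving out libraries gave 30 to 96. With the mean of log2 values as the group level, the rule took 34 genes and kept 24 of the 39. Of those 34, 12 had low dawn levels, 14 were near their NT12 level and 8 had high dawn levels. The class with low dawn levels was then no longer the largest. The class with low dawn levels (20) had 108 genes under total counts, 13 with a class limit of 2, and 14 to 27 with libraries left out. The class near its NT12 level (11) had 27 under upper-quartile and 95 under total-count scaling, 3 and 25 with class limits of 0.5 and 2, and 8 to 55 with libraries left out. The class with high dawn levels (8) had 1 with a limit of 2 and 4 to 26 with libraries left out. The held-out median for replicate 2 moved from -0.61 to -1.40 under total counts. The share of all genes with a positive call for the difference between the responses also depended on scaling. Of the 24700 genes tested, 2283 were called as reported and 9279 under total-count scaling, and of the 39 genes 22 and 31. Calls among the 39 with 1 library left out ranged from 29 to 36 in CT12 against NT12, 0 to 4 in CT24 against NT24, 19 to 24 in the difference of responses, 15 to 25 in NT24 against NT12 and 21 to 24 in CT24 against CT12. The 2 calls in CT24 against NT24 became 0 at an adjusted p of 0.01, 4 under upper-quartile scaling and 0 under the replicate block; at an unadjusted p below 0.05 there were 5. Same-numbered libraries mostly did not deviate together (correlation over 0.1 in 4 of 18 pairs, range -0.444 to 0.285), and the numbers were not taken as pairs. With 3 libraries per group this does not settle whether the samples were paired. Named genes were checked only in the comparisons they were named for. The alternatives used were RLE and total-count scaling, DESeq2, the replicate block and left-out libraries of the groups compared. None changed sign there, and 138 alternative results stayed on their side of the threshold while 28 were no longer called. The difference between the responses was checked in this way for OsR498G0511119300.01 only. With 3 libraries per group and counts near 0 in single groups, the size of the largest falls is poorly measured. The causes of these changes were not tested.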
